A study of Mus musculus with 5 samples.

Results

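Conventional dendritic cells of type 1 (cDC1) are the dendritic cells that take up dead cell material and present its peptides on MHC class I to CD8 T cells, a route called cross-presentation. They depend on the transcription factors Irf8 and Batf3 and on the growth factor receptor Flt3, and they are known for recruiting and priming CD8 T cells in mouse tumors. The genes described here are 9 markers of these cells, Clec9a, Xcr1, Cadm1, Batf3, Naaa, Wdfy4, Flt3, Zbtb46 and Kit. They were chosen by name, as the rows of the authors' deposited table whose gene symbol is one of them. Each of the 9 symbols stood alone in 1 row of the 24982 in that table, and all 9 were among the 12311 rows that Cuffdiff tested.

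The RNA came from macrophages isolated out of tumors of 9609, a mouse MCA fibrosarcoma line. The MEK1-hi group has 3 libraries, with cell line and genotype labelled MEK1-hi and treatment with MEK1-hi exosomes (small vesicles shed by cells). The MEK1-low group has 2 libraries, with cell line and genotype labelled MEK1-low and treatment with exosomes labelled MEK1-low (GFP). MEK1 is a kinase of the RAS-RAF-MEK-ERK cascade. The sources used here give no strain, age, sex, time of treatment, number of tumors per library or way of isolating the macrophages. Rejecting and growing tumors are named in the series title, with neither word tied to a group. The question is how the transcripts of the macrophages differ between MEK1-hi and MEK1-low tumors.

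The deposited values are FPKM (fragments scaled for transcript length and for the size of the library), 1 pooled value per group. No value per library is given, so no SD, SE or interval stands beside them. Error enters through the Cuffdiff test alone, by its statistic and its q value (p adjusted over all tested rows), and a row was called at q of 0.05 or below. The labels do not say that libraries came from separate animals, so p and q measure the spread between these libraries, which may be technical. The depth of each library is unknown from the table. The most abundant macrophage markers stood high in both groups in the authors' deposited table. C1qa had 3758 FPKM in MEK1-hi and 3261 FPKM in MEK1-low, and Lyz2 6372 FPKM in MEK1-hi and 4999 FPKM in MEK1-low. C1qb had 3650.1 FPKM in MEK1-hi and 3163 FPKM in MEK1-low there. Adgre1 and Mertk, named after their values were seen, were lower. In the authors' deposited table Adgre1 had 411 FPKM in MEK1-hi and 388 FPKM in MEK1-low, Mertk 23.1 FPKM in MEK1-hi and 25.2 FPKM in MEK1-low. The collagen gene Col3a1 had 290 FPKM in MEK1-hi and 454 FPKM in MEK1-low there, above Adgre1 in MEK1-low only. Of 11 macrophage markers tested (median log2 fold change 0.20), 0 were called higher and 0 lower. In bulk RNA, more cells of a type and more RNA per cell cannot be told apart.

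Of the 9 marker genes, 5 were called higher in MEK1-hi macrophages and 0 lower. The 5 are the dead cell receptor Clec9a, the chemokine receptor Xcr1, the adhesion molecule Cadm1, the lysosomal enzyme Naaa and the receptor tyrosine kinase Kit. Over all tested rows, 0.999% were called higher and 0.325% lower. The other 4 (Batf3, Wdfy4, Flt3 and Zbtb46) had higher FPKM in MEK1-hi without being called. The median log2 fold change of the 9 was 1.05, beside -0.02 over all tested rows, and 5688 of the 12311 rows (46.2%) lay above 0. Rescaling the groups to equal FPKM sums lowers every log2 fold change by the same amount, a shift of -0.13 that leaves the 9 above 0 with a median of 0.92. At an unadjusted p under 0.05, 6 of the 9 were higher, the 5 and Flt3, where 3.5% of all tested rows were. The calls depended on how p was obtained: with p taken from the deposited statistic and a normal distribution, Clec9a alone was called (q of 0.0296), and under the Benjamini-Yekutieli adjustment 0 were. By those rules 15 and 0 rows of the whole table were called. Benjamini-Yekutieli could call no row here, because the smallest p, 5e-05, is shared by 91 rows and adjusts to 0.0676.

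**Figure D1:**
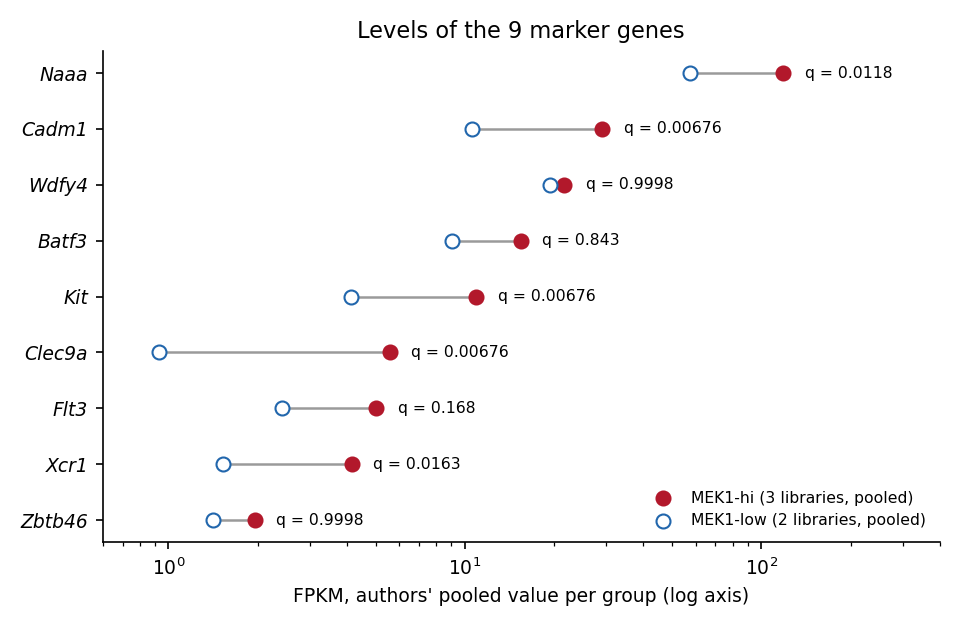
FPKM of the 9 marker genes on a log axis, MEK1-hi as filled and MEK1-low as open circles, each circle the authors' pooled value for the group, with the Cuffdiff q value beside each pair. The MEK1-hi circle lies to the right in all 9 pairs, by the widest gap for Clec9a (5.58 FPKM in MEK1-hi, 0.931 FPKM in MEK1-low) and the narrowest for Wdfy4 (21.7 FPKM in MEK1-hi, 19.4 FPKM in MEK1-low).

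The start regions of 4 marker genes are shown. They were taken because Clec9a and Xcr1 are receptors used as cDC1 markers, Batf3 is a factor of cDC1 development and Zbtb46 has an AP-1 match. Each window runs from 250 bases before to 50 bases after a transcript start in RefSeq (GRCm38.p6, the assembly of mm10), 5′ to 3′ on the gene's strand. Windows were found for 8 of the 9 genes. Capitals mark the matches to any of 5 short motifs, searched on both strands. The Clec9a window is chr6:129408612-129408911 (plus strand), that of Xcr1 chr9:123861980-123862279 (minus strand), that of Batf3 chr1:191098164-191098463 (plus strand) and that of Zbtb46 chr2:181424339-181424638 (minus strand).
Clec9a: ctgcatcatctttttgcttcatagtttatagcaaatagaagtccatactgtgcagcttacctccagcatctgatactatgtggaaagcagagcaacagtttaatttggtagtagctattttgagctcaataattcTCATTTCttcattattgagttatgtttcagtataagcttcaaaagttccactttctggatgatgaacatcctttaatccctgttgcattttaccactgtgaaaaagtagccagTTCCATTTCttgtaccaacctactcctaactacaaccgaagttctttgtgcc
Xcr1: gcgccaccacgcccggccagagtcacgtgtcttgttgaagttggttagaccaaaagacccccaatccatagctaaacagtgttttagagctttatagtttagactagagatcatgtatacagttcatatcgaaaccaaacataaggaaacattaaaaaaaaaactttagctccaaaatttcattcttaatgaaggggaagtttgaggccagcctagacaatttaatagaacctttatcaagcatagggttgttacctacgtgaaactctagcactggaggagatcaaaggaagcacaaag
Batf3: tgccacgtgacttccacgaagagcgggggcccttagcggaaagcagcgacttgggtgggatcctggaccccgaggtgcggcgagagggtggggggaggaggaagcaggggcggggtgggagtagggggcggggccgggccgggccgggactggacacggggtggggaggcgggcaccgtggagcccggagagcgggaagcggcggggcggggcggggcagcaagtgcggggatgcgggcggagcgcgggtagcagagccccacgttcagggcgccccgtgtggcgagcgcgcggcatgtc
Zbtb46: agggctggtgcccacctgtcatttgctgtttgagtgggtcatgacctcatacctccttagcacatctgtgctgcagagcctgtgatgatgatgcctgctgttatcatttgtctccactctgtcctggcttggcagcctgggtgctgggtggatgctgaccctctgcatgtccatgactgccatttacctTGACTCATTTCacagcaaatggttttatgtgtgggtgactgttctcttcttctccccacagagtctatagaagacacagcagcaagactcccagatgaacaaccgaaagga

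The motifs were AP-1 (TGANTCA, bound by Batf and Jun proteins), an IRF element (GAAANNGAA), a short AP-1-IRF composite (GAAATGA), PU.1 (GAGGAAGT) and Runx (TGTGGTT). The Clec9a window held 1 IRF match, from base -2 to base 6 around the start (counted from 0 at the first transcribed base), and 1 composite match from -115 to -109, both on the opposite strand. Zbtb46 held an AP-1 match from -61 to -55 that overlaps a composite match from -57 to -51. Its window belongs to a start inside the gene's locus, not to the locus end. The windows of Batf3, Xcr1, Naaa, Kit, Flt3 and Wdfy4 held none of the 5. Of all 32851 windows, 7.81% hold the AP-1 letters, 8.56% the IRF, 5.45% the composite, 3.2% the PU.1 and 5.27% the Runx letters. A match is a run of letters and not a measured binding site, and a window without one says nothing about a factor. The windows of Clec9a and Xcr1 had a GC content of 37% and 40%, that of Batf3 75.7%, and the median of all windows was 52.7%.

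Among the receptors, Clec9a stood out by the size of its difference. It encodes DNGR-1, a C-type lectin that binds actin filaments exposed by dead cells and steers their antigens to cross-presentation. In the authors' deposited table Clec9a (mm10 chromosome 6, 129408862 to 129424764) had 5.58 FPKM in MEK1-hi and 0.931 FPKM in MEK1-low, with a log2 fold change of 2.58, a statistic of 4.16 and q = 0.00676. A larger fold change was found in 0.0975% of the tested rows. Its level in MEK1-low was the lowest of the 9 markers, while in MEK1-hi it was the sixth highest. Because that low value lies under 1 FPKM, a pseudocount of 1 brings the log2 fold change to 1.77.

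Xcr1 is the receptor for the chemokine Xcl1, which NK cells and activated CD8 T cells release. The authors' deposited table gives Xcr1 (chromosome 9, 123852315 to 123862029) 4.17 FPKM in MEK1-hi and 1.53 FPKM in MEK1-low (log2 fold change 1.45, statistic 2.62, q = 0.0163). Xcr1 was thus called at a low level, and under a q threshold of 0.01 it was not. Its ligand Xcl1 had 5.40 FPKM in MEK1-hi and 3.36 FPKM in MEK1-low in the authors' deposited table and was not called (log2 fold change 0.68, q = 0.9998).

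Cadm1 is an immunoglobulin-type adhesion molecule of cDC1 that binds Crtam on T and NK cells, and it is also made by mast cells, epithelia and other cells. In MEK1-hi, Cadm1 (chromosome 9, 47530170 to 47853391) had 29.1 FPKM and in MEK1-low 10.6 FPKM in the authors' deposited table (log2 fold change 1.46, statistic 3.82, q = 0.00676). It rose 2.75-fold, close to the 2.73-fold of Xcr1, at a higher level in both groups. Crtam was not tested by Cuffdiff and stood at 0.243 FPKM in MEK1-hi and 0.242 FPKM in MEK1-low in the authors' deposited table.

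Kit, the receptor for stem cell factor, is found on mast cells and progenitors and on part of the conventional dendritic cells. The authors' deposited table lists Kit (chromosome 5, 75574987 to 75656721) at 10.9 FPKM in MEK1-hi and 4.13 FPKM in MEK1-low (log2 fold change 1.40, statistic 3.31, q = 0.00676). Flt3, whose ligand maintains dendritic cells and their precursors, had 5.02 FPKM in MEK1-hi and 2.42 FPKM in MEK1-low there (chromosome 5, 147330742 to 147400489). Its 2.07-fold difference did not pass (statistic 2.02, q = 0.168), whereas Naaa, with a like fold at a higher level, did. The ligand genes Flt3l (6.01 FPKM in MEK1-hi, 4.37 FPKM in MEK1-low) and Kitl (2.76 FPKM in MEK1-hi, 1.93 FPKM in MEK1-low) were not called in the authors' deposited table, each with q = 0.9998.

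Kit is also a gene of mast cells, and basophils share many mast cell transcripts. Of 12 markers of these cells, 9 were not tested by Cuffdiff, and none of these 9 exceeded 0.257 FPKM in either group in the authors' deposited table. Ms4a2 and Mrgprb2 were listed at 0 in both groups, and Fcer1a at 0 in MEK1-hi. The 3 tested markers, Il1rl1, Hdc and Gata2, are also expressed by other cells, and 0 of them were called. Their fold changes lay between -0.39 and 0.71 on the log2 scale. The summed FPKM of the 12 was 44.1 in MEK1-hi and 48.8 in MEK1-low, nearly all of it from Il1rl1 (32.4 FPKM in MEK1-hi, 39.98 FPKM in MEK1-low) and Hdc (10.1 FPKM in MEK1-hi, 6.18 FPKM in MEK1-low) in the authors' deposited table. The part of such cells in the Kit difference was not tested.

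Naaa and Wdfy4 work inside the cell. Naaa is a lysosomal amidase that breaks down lipid amides such as palmitoylethanolamide, and macrophages make it too. It was the most abundant of the 9, and in the authors' deposited table Naaa (chromosome 5, 92257660 to 92278181) had 119 FPKM in MEK1-hi and 57.6 FPKM in MEK1-low (log2 fold change 1.04, statistic 2.81, q = 0.0118). Wdfy4, a BEACH domain protein that cDC1 need to cross-present antigen from cells, differed least. The authors' deposited table gives Wdfy4 (chromosome 14, 32959547 to 33185066) 21.7 FPKM in MEK1-hi and 19.4 FPKM in MEK1-low (log2 fold change 0.16, q = 0.9998). B cells express Wdfy4 as well, and the B cell markers Cd79a and Ms4a1 were no higher than 0.349 FPKM in either group there. The B cell genes Cd79b and Cd22, named after their values were seen, stood higher, at 8.48 and 12.98 FPKM as the mean of both groups. Their log2 fold changes were 0.146 and 0.150, and neither was called. The part of B cells in the Wdfy4 level was not tested.

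The transcription factors of the set did not pass the test. Batf3 (chromosome 1, 191098414 to 191108943) had 15.4 FPKM in MEK1-hi and 9.03 FPKM in MEK1-low in the authors' deposited table, a log2 fold change of 0.77 with q = 0.843. Zbtb46, which marks conventional dendritic cells as a whole (chromosome 2, 181390886 to 181459426), had 1.95 FPKM in MEK1-hi and 1.41 FPKM in MEK1-low there (log2 fold change 0.47, or 0.29 with a pseudocount of 1, q = 0.9998). A q above the threshold does not show that these genes were equal in the groups. Irf8, the partner of Batf3 in cDC1 and also a factor of monocytes and macrophages, was called: the authors' deposited table has it at 114 FPKM in MEK1-hi and 61.6 FPKM in MEK1-low (log2 fold change 0.89, q = 0.0344). Of the related AP-1 factors, Batf2, which can stand in for Batf3 and is induced by interferon, rose to 23.6 FPKM in MEK1-hi, against 8.08 FPKM in MEK1-low (log2 fold change 1.54, q = 0.00676 in the authors' deposited table). Batf, Jun and Junb lay between 0.31 and 0.44 on the log2 scale and were not called, while Jund was called at 1.04 (q = 0.00676 in the authors' deposited table).

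The share of rows called varied with their level. The 5 markers with a mean FPKM between 1 and 10 (Clec9a, Xcr1, Flt3, Zbtb46 and Kit) stood in a range where 0.763% of 5114 tested rows were called higher. The 4 between 10 and 100 FPKM (Cadm1, Batf3, Naaa and Wdfy4) stood in one where 1.24% of 5317 were. Read per length, the order of levels in MEK1-hi was Naaa, Cadm1, Wdfy4, Batf3, Kit, Clec9a, Flt3, Xcr1 and Zbtb46. In MEK1-low it was Naaa, Wdfy4, Cadm1, Batf3, Kit, Flt3, Xcr1, Zbtb46 and Clec9a, and with 1 value per group it cannot be said which neighbors in either order differ beyond their spread. The summed FPKM of the 8 genes other than Naaa was 93.9 in MEK1-hi and 49.5 in MEK1-low.

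**Figure D2:**
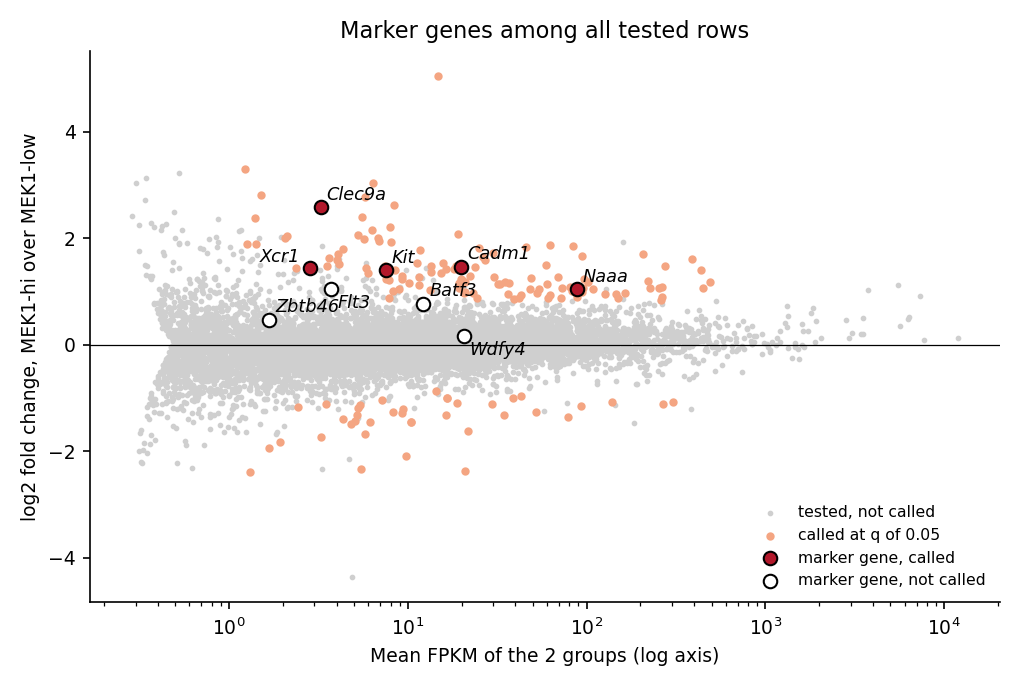
Log2 fold change of MEK1-hi over MEK1-low against the mean FPKM of the groups (log axis) for the tested rows above 0 in both groups, with rows called at q of 0.05 in orange and the 9 marker genes as large circles, filled where called. Clec9a lies at 2.58, Cadm1, Xcr1 and Kit between 1.40 and 1.46, and Wdfy4 at 0.16, the lowest of the 9.

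Other cDC1 genes were mostly higher, but few were called. Of 16 listed, 14 were tested, 12 of these lay above 0 and 2 below, and 1, Irf8, was called higher and 0 lower (median log2 fold change 0.46). The most abundant of the rest was Id2, a factor needed by cDC1 and by NK cells, with 406 FPKM in MEK1-hi and 368 FPKM in MEK1-low in the authors' deposited table. It was followed there by the vesicle GTPase Rab7b, with 131.1 FPKM in MEK1-hi and 129.6 FPKM in MEK1-low, and the lysosomal thioesterase Ppt1, with 149 FPKM in MEK1-hi and 90.5 FPKM in MEK1-low. Tlr11, the mouse sensor of protozoan profilin, named here after its values were seen, had 1.37 FPKM in MEK1-hi and 0.335 FPKM in MEK1-low there (q = 0.0684). Genes shared by conventional dendritic cells had 16 of 19 above 0 and 2 called higher, 0 lower (median 0.41). The called ones were Adgrg5, an adhesion-type receptor, with 8.48 FPKM in MEK1-hi and 3.14 FPKM in MEK1-low (q = 0.00676), and P2ry10, a receptor for lysophosphatidylserine, with 26.6 FPKM in MEK1-hi and 11.9 FPKM in MEK1-low (q = 0.00676), as given in the authors' deposited table. Gpr132, Slamf7 and Runx3, the most abundant of the others, had log2 fold changes of 0.35, 0.73 and 0.24 and were not called.

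Markers of the other conventional subset, cDC2, had no such majority. Of 10 tested, 5 lay above 0 and 5 below (median 0.07, or -0.07 with equal FPKM sums), with 0 called higher and 1 lower. That one was Mgl2, a galactose-type lectin also made by alternatively activated macrophages, with 6.76 FPKM in MEK1-hi and 35.1 FPKM in MEK1-low in the authors' deposited table (log2 fold change -2.38, q = 0.00676). Sirpa, Klf4 and Relb, the most abundant of the 10, lay between 0.14 and 0.36 without a call. They had 309, 116 and 55.9 FPKM in MEK1-hi and 280, 90.4 and 47.6 FPKM in MEK1-low there. The libraries are of macrophages, and what part of these levels came from cDC2 was not tested. Cd209a, named after its values were seen, had 4.64 FPKM in MEK1-hi and 9.68 FPKM in MEK1-low there (q = 0.274). The difference between the cDC1 and cDC2 genes was not tested.

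Genes of mature migratory dendritic cells had 5 of 11 above 0 and 6 below (median -0.20), with 1 called each way. The costimulator Cd40 was called higher, at 79.0 FPKM in MEK1-hi and 42.8 FPKM in MEK1-low (q = 0.0434), and the chemokine Ccl17 lower, at 3.73 FPKM in MEK1-hi and 15.9 FPKM in MEK1-low (q = 0.0276), in the authors' deposited table. Cd83 (0.34), Fscn1 (-0.45) and Ccr7 (0.27) were not called, with log2 fold changes in brackets. Plasmacytoid dendritic cells also express Flt3, and of their 8 markers 0 were called, with a median of 0.24 and Tcf4, Ly6d and Spib at -0.14, 0.26 and 0.44. Their summed FPKM was 49.96 in MEK1-hi and 45.01 in MEK1-low in the authors' deposited table.

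The genes listed as machinery of cross-presentation and MHC class I loading had 20 of 22 above 0. Of the 22, 2 were called higher and 0 lower (median 0.20). With equal FPKM sums 13 lay above 0 and the median was 0.07. The called genes were both subunits of the peptide transporter, Tap1 with 147 FPKM in MEK1-hi and 71.1 FPKM in MEK1-low (q = 0.00676) and Tap2 with 92.8 FPKM in MEK1-hi and 50.7 FPKM in MEK1-low (q = 0.0242), in the authors' deposited table. At the top by level, B2m, Ifi30 and Cyba differed by 0.48, 0.20 and 0.18 on the log2 scale without a call.

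**Figure D3:**
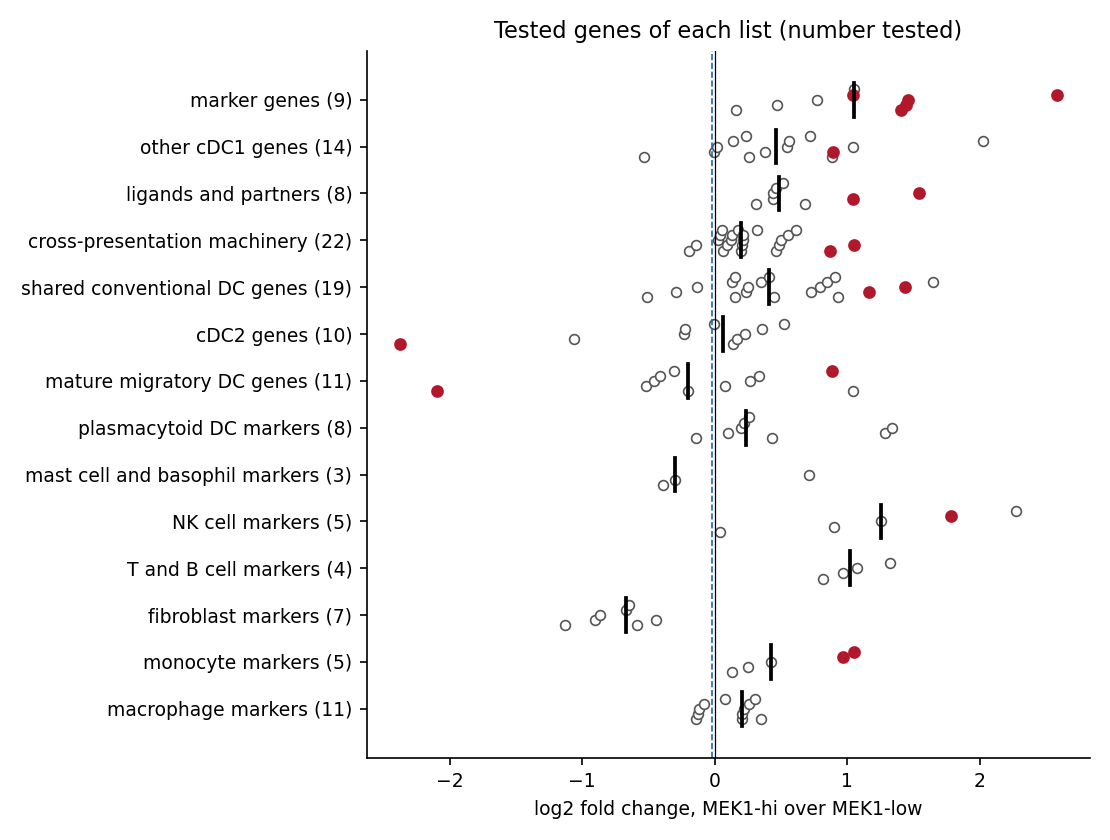
Log2 fold change of MEK1-hi over MEK1-low for each tested gene of the 9 markers and of 13 related lists, filled where called at q of 0.05, with a black bar at each list's median and a dashed line at the median of all tested rows (-0.02). The 9 markers all lie above 0, the 10 cDC2 genes lie on both sides, and the 7 fibroblast markers all lie below 0.

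Markers of other cell types differed alongside, and the medians of the NK and the T and B cell lists were close to or above the 1.05 of the 9 markers. Of 8 NK cell markers, 5 were tested, all 5 above 0 (4 with equal FPKM sums), with a median log2 fold change of 1.25. The activating receptor Klrk1 was called higher, at 18.1 FPKM in MEK1-hi and 5.27 FPKM in MEK1-low (q = 0.00676 in the authors' deposited table). The other 4 tested were not called. Of these, the receptor subunit Klrd1 had 12.6 FPKM in MEK1-hi and 6.76 FPKM in MEK1-low in the authors' deposited table (log2 fold change 0.90, q = 0.568). The protease Gzmb had 4.66 FPKM in MEK1-hi and 1.96 FPKM in MEK1-low there (1.25, q = 0.239), and Gzma 0.670 FPKM in MEK1-hi and 0.650 FPKM in MEK1-low (0.04, q = 0.9998). Perforin, Prf1, named after its values were seen, had 0.732 FPKM in MEK1-hi and 0.151 FPKM in MEK1-low in the same table (2.28, q = 0.254). The 3 untested markers, Ncr1, Klrb1c and Eomes, were no higher than 0.182 FPKM in either group, and the summed FPKM of the 8 was 37.2 in MEK1-hi and 15.0 in MEK1-low.

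Of 6 T and B cell markers, 4 were tested, 4 lay above 0 and 0 were called, with a median of 1.02 and a summed FPKM of 10.3 in MEK1-hi and 5.24 in MEK1-low. The T cell genes Cd3g, Cd8a and Cd3e differed by 0.82, 1.32 and 0.97 on the log2 scale. The B cell markers Cd79a and Ms4a1 were untested, so the median of 1.02 holds T cell genes only. Some other T cell genes, named after their values were seen, lay lower. Cd247, Cd8b1 and Cd2 differed by 0.49, 0.40 and 0.05, and Cd6, Cd5 and Cd28 by -0.13, -0.24 and -0.43. None of these was called. Of 5 monocyte markers (median 0.43), Ly6c2 and Plac8 were called higher (log2 fold changes 1.05 and 0.97), and Nr4a1, Ccr2 and Chil3, at 0.13, 0.43 and 0.25, were not. The 5 summed to 682 FPKM in MEK1-hi and 497 FPKM in MEK1-low. All 7 fibroblast markers lay below 0 with 0 called (median -0.67), among them the collagen genes Col3a1, Col1a1 and Col1a2 at -0.65, -0.58 and -1.13. They summed to 714 FPKM in MEK1-hi and 1164 FPKM in MEK1-low. These sums are of values from the authors' deposited table, and the part of these cell types in the marker genes' differences was not tested.

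No pair of the markers lies within 500 kb of each other, and Clec9a stands among the lectin genes of the NK gene complex. Of the 18 other tested rows within 500 kb of its locus, 16 lay above 0 (median 0.72), and 3 were called higher and 0 lower. Those 3 were Clec12a, an inhibitory lectin of myeloid cells, with 195 FPKM in MEK1-hi and 106 FPKM in MEK1-low (q = 0.0202), Klrk1, and Klra17 with 9.28 FPKM in MEK1-hi and 1.77 FPKM in MEK1-low (q = 0.00676), in the authors' deposited table. The genes adjoining Clec9a on either side, Clec1b and Clec1a, had under 1 FPKM in both groups and were not called. Killer cell lectin genes of this region are similar in sequence, so the authors' read assignment may have shifted reads between them, and without a stated strand setting the overlapping genes Gabarapl1 and 1700101I11Rik cannot be told apart. This window was examined after the values were seen, and no test of it was made.

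**Figure D4:**
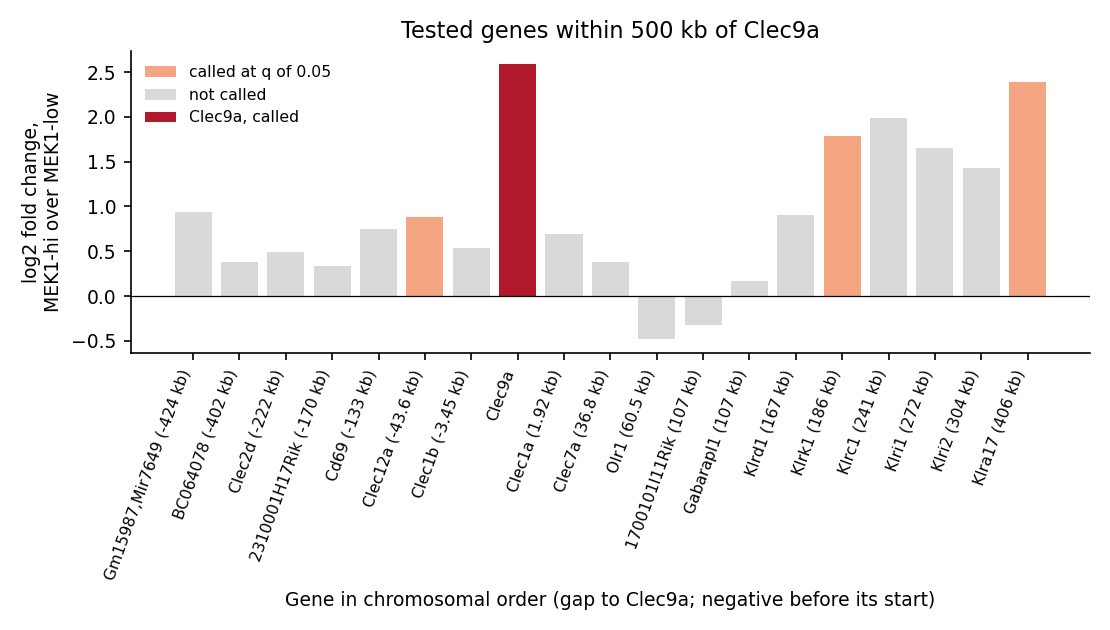
Log2 fold change of MEK1-hi over MEK1-low for Clec9a and the 18 other tested rows within 500 kb, in chromosomal order, with the gap to the Clec9a locus in kb and the rows called at q of 0.05 in orange. Olr1 and 1700101I11Rik lie below 0, and the other neighbors above it, up to 2.39 for Klra17.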

How the data were processed

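Macrophage RNA of mouse tumors was sequenced in 3 MEK1-hi libraries and 2 MEK1-low ones. These were stranded mRNA libraries read in pairs of 100 bases, per the labels' protocols. The submitters' processing notes name FastQC 0.73, TopHat, Cufflinks, Cuffdiff and mm10, with no role or order. Annotation, filters and strand setting: not given in the sources used here.

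A pooled FPKM per group was deposited, in a Cuffdiff table by the authors, so there are no values per library and no count model was run. The table's test statistic (a score) and its p-value and q-value columns are as deposited. Adjusting p by Benjamini-Hochberg gives the same q over the 12311 tested rows to within 5e-07. The smallest p is 5e-05, shared by 91 rows, which cannot be ranked by p.

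Fold changes were computed here as log2 of MEK1-hi over MEK1-low FPKM, since the deposited fold change column holds spreadsheet error text. Calls use q of 0.05 or below. No set test was run. Some items are not reported here. The members and the 13 other lists were chosen with earlier results of these data known. Named are all members, ligands and partners, and in each other list the called genes and the 3 others with the highest mean FPKM; genes outside this rule are said to be so, and the mast cell, NK, B cell and Clec9a-window genes named beyond it were also chosen after their values were seen. Loci are the authors' on mm10, 1-based. The code for adjusting p, for fold changes and for the q threshold was checked on simulated data with a known spread. That check does not cover the authors' Cuffdiff test. Tools were scipy 1.17.1, pandas 2.3.3, matplotlib 3.10.9 and numpy 2.4.6 under Python 3.11.15.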

Additional observations from a re-analysis of the deposited data

How the results depend on the processing

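The number of markers called (5) stayed at 5 with a q threshold of 0.1 and when rows under 1 FPKM in both groups were left out. It was 3 (Clec9a, Cadm1 and Kit) at a q threshold of 0.01, 1 (Clec9a) with normal p values from the statistic and 0 under the Benjamini-Yekutieli adjustment, where the lowest adjusted p of a marker was 0.0676. The rows called over the table, 163, were 91, 15 and 0 under these 3 settings, and 198 and 173 under the first 2. The 91 rows called at a q threshold of 0.01 are those at the smallest p, 5e-05, which all share the same adjusted value. Under Benjamini-Yekutieli that value is 0.0676, so no row of the table could pass. The 0 there therefore says nothing particular to the markers. Why normal p values gave fewer calls was not tested. The median log2 fold change of the 9 markers, 1.05, was 1.03 with a pseudocount of 1, 1.04 with 0.1 and 0.92 with equal FPKM sums. It was 1.07 after centring on the median of the tested rows with at least 1 FPKM in a group. All 36 values of single markers under these 4 settings lay above 0. A pseudocount of 1 moved Zbtb46 to 0.29, Xcr1 to 1.03 and Clec9a to 1.77. Leaving out each library was not run, because the table holds 1 pooled value per group. No paired analysis was possible because the table has no columns per library, although both groups have libraries numbered 1 and 2. Without depth per library, the low values of Zbtb46, Xcr1 and Clec9a (the 3 lowest of the 9 in MEK1-low) carry no counting interval.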

Other observations

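Naaa lies near the chemokine genes Cxcl9 and Cxcl10, whose products attract activated T cells. Sdad1 lies between Naaa and Cxcl9 and was not called (log2 fold change 0.01). In the authors' deposited table Cxcl9, 43.1 kb after the Naaa locus, had 587 FPKM in MEK1-hi and 191 FPKM in MEK1-low (q = 0.00676). Cxcl10, 53.6 kb after it, had 604 FPKM in MEK1-hi and 288 FPKM in MEK1-low there (q = 0.0465). These were the only rows called among the 14 other tested rows within 500 kb of Naaa, of which 7 lay above 0 (median log2 fold change -0.03). In the windows of Batf3, Xcr1, Zbtb46, Wdfy4 and Kit, 0 of 14, 11, 22, 4 and 3 other tested rows were called, and in that of Flt3 it was 1 of 11, the ribosomal protein gene Rpl21. Cadm1 had 0 other tested rows within 500 kb. The windows were set after the values were seen and were not tested.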
